A study of Mus musculus with 10 samples.

Results

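Retinoid metabolism and its receptors were followed in C57BL/6 mouse brain through 9 genes that cover the path of vitamin A from carrier to receptor. The genes were Aldh1a1, Aldh1a2, Rbp4, Crabp1, Crabp2, Rara, Rarb, Rxra and Rxrg, and every probe set that the array annotation assigned to 1 of these symbols was included. This gave 10 probe sets of 22626, with 2 for Rxra and 1 for each other gene. C57BL/6 is an inbred laboratory strain, and total RNA of brain was hybridised to Affymetrix MOE430A arrays, 1 array per sample, on which a probe set is a group of short probes against 1 transcript. The 10 arrays comprised 4 at 8 weeks of age (2 labelled female, 2 labelled male) and 6 at 1 week (3 labelled female, 3 labelled male). No genotype or treatment other than the strain was given in the labels. The brains are numbered within each group and are not stated to come from separate animals, so p-values measure the spread between these samples, and the number of arrays limits the precision.

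Retinol travels in blood bound to RBP4, is oxidised to retinaldehyde, and is then oxidised to retinoic acid by the retinaldehyde dehydrogenases ALDH1A1 and ALDH1A2. Inside cells retinoic acid is held by CRABP1 and CRABP2 and is broken down by CYP26 enzymes. It acts through retinoic acid receptors (RARA, RARB), which bind DNA as dimers with retinoid X receptors (RXRA, RXRG), and in rodent brain RARB and RXRG are best known from the striatum and ALDH1A2 from the meninges.

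Among these genes the steep changes ran in opposite directions. Aldh1a1 was much higher at 8 weeks. Crabp1 was lower, but it was dim, lay below the filter described below, and was called only in a fit without that filter. In neither gene did the arrays of the ages overlap, as was so for 25% of all 22626 probe sets. Among the receptors, Rxra was higher at 8 weeks in 1 of its 2 probe sets, a call that single arrays could end, and no other passed the test. Rbp4 varied more between arrays of an age than between ages.

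The promoters of Aldh1a1 and Crabp1 are shown because these genes separated the ages, and that of Rarb because it holds a repeat of the kind retinoic acid receptors bind. Each is a window from RefSeq (GRCm38.p6) with 250 bases before and 50 after an annotated start, written on the strand of the gene, and 15 such windows were found for 8 of the 9 genes. For Aldh1a1 the window at chr19:20601718-20602017 (plus strand) has 47% G and C, and capitals mark CCAAT, which occurs in 37.4% of all 32851 windows on either strand. The other Aldh1a1 window held none of the motifs searched. For Crabp1 the window at chr9:54764498-54764797 (plus strand) has 65% G and C, and capitals mark GGGCGG or its complement, found in 35.7% of all windows. For Rarb the window at chr14:16575427-16575726 (minus strand) has 57.7% G and C, and capitals mark GGTTCA followed by AGTTCA with 5 bases between them. Alone, these 6-base units occur in 10.4% and 14% of windows, and the repeat overlaps both. The whole repeat occurs in 2 of the 32851 windows, 0.00609%, on either strand. It is a form of the general direct repeat DR5, found by looser letters in 32 windows (0.0974%), and the general DR2 and DR1 occur in 0.268% and 0.222%. The searches also covered AGGTCA (16.3% of windows), its direct repeats with 5 or 2 bases between the units (0.00913% each), which overlap the single unit, and TATAAA (13.6%). A match is a run of letters and says nothing on binding in these brains.
Aldh1a1: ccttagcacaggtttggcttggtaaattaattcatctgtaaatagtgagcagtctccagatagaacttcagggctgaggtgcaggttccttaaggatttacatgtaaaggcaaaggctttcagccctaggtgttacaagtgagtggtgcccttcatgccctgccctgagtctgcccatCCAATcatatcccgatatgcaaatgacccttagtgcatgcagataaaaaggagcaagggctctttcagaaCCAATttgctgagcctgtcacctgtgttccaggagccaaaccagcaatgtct
Crabp1: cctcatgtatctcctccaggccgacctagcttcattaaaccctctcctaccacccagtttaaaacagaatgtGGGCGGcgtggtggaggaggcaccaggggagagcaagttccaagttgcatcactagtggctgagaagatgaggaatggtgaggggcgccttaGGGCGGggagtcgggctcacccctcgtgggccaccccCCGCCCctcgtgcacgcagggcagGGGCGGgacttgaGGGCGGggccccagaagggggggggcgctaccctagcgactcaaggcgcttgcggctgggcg
Rarb: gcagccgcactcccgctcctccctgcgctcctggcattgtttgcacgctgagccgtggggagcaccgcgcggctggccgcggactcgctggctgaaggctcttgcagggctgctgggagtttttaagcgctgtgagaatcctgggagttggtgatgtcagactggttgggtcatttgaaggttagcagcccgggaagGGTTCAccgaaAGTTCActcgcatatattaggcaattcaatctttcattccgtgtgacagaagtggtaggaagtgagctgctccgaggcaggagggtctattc

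The arrays differed in brightness, with trimmed means of deposited intensity from 254 to 318 at 8 weeks and from 138 to 235 at 1 week, so values below are quantile-normalized intensities. Sex-linked transcripts followed the sex labels in all 4 arrays at 8 weeks. At 1 week they opposed the label in 4 of 6 arrays and 1 array carried both kinds, so a label at 1 week cannot be read as sex. Changes of the retinoid genes are also given without arrays that opposed or did not match their label. Some arrays stood apart in marker genes of other tissues or regions, and these values are given beside the genes they move with. In whole brain, fewer cells of a type and less RNA per cell cannot be told apart. Changes are log2(intensity + 24) at 8 weeks minus 1 week ± SE from limma, fitted over the probe sets that passed a filter unless a fit without it is named, with Benjamini-Hochberg adjusted p and a threshold of 0.05, and they understate the change of dim probe sets.

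A filter kept the probe sets in the upper 60% of mean log2 intensity, 13576 of 22626, and 5 of the 10 retinoid probe sets passed it. These were Aldh1a1, Rbp4, Rarb and both for Rxra, so 4 of the 9 genes were tested. By the brightest probe set of each gene, 1 of these 4 was higher at 8 weeks and 0 lower, where 21.9% of all 8148 genes tested were higher and 24% lower, 45.9% in all. By probe set, 2 of 5 were higher and 0 lower, where 22% of 13576 were higher and 24% lower, 46% in all. The 5 probe sets below the filter, for Aldh1a2, Crabp1, Crabp2, Rara and Rxrg, were tested in a second fit over all 22626 probe sets, in which 14.7% were higher and 15.3% lower, 29.9% in all. That fit called Crabp1 lower and none of the other 4, and over all 10 retinoid probe sets it called 2 higher and 1 lower. Without regard to any test, the ages did not overlap in 3 of the 10 retinoid probe sets, 2 higher and 1 lower at 8 weeks, where 12.3% of all probe sets were separated upward and 12.7% downward, 25% in all. With so few probe sets, these shares are not told apart from those of the array as a whole.

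**Figure D1:**
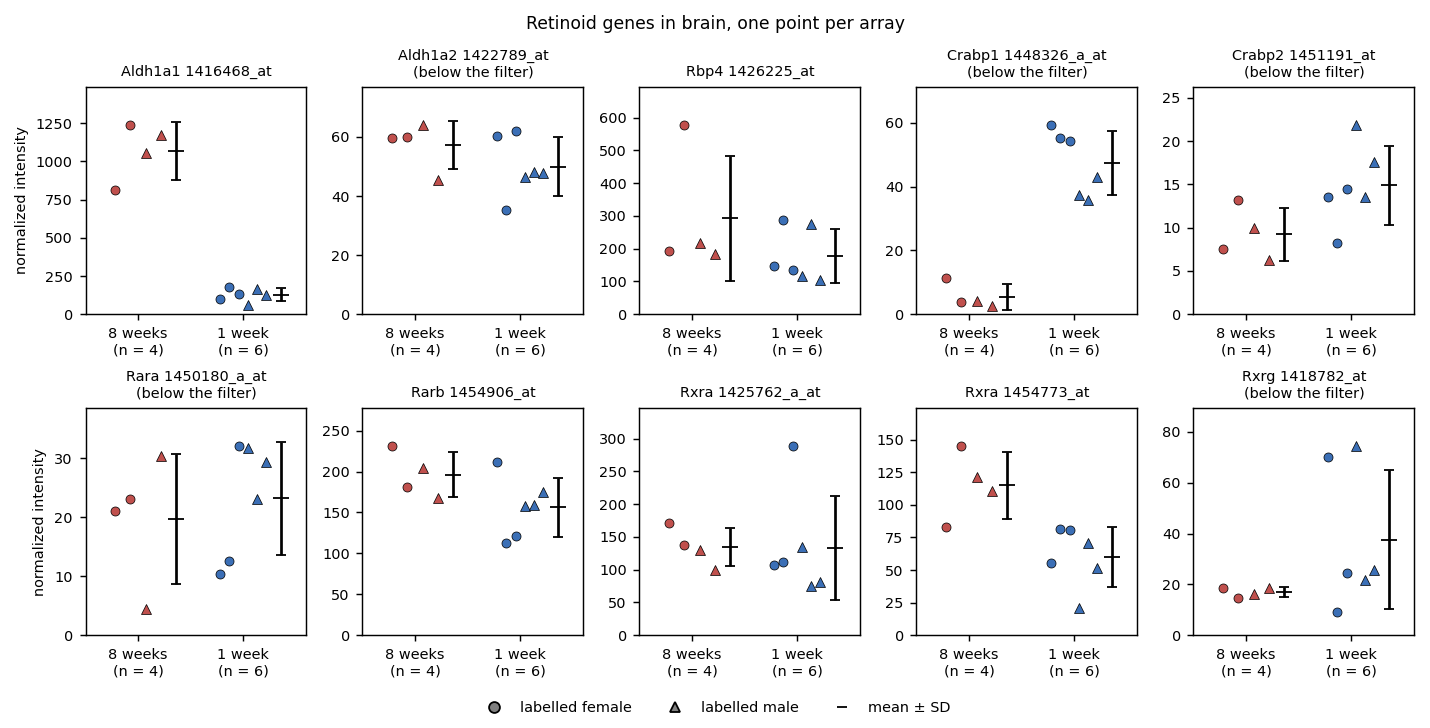
Normalized intensity of each retinoid probe set, 1 panel per probe set, with 8 weeks on the left and 1 week on the right and the scale of each panel starting at 0. Points are arrays (circles labelled female, triangles labelled male) and bars are the mean ± SD. Aldh1a1, Crabp1 and the second Rxra probe set separate the ages, Rbp4 has 1 array at 578 at 8 weeks, and Rxrg has 2 arrays at 70.0 and 74.5 at 1 week.

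Aldh1a1 encodes a cytosolic retinaldehyde dehydrogenase, which in mouse brain marks a subset of midbrain dopamine neurons. Its probe set (1416468_at) read 811 and 1240 in the arrays labelled female and 1056 and 1173 in those labelled male at 8 weeks. At 1 week it read 102, 181 and 133 in the arrays labelled female and 59.5, 164 and 124 in those labelled male. The lowest array at 8 weeks lay far above the highest at 1 week. It averaged 1070 ± 189 at 8 weeks and 127 ± 43.6 at 1 week (SD, n = 4 and n = 6), a ratio of 8.40. The change of 2.89 ± 0.23 passed in limma (adjusted p = 6.87e-06) and was the seventh largest rise, rank 7 among 8148 genes. The change was 3.24 ± 0.26 without the 4 arrays that opposed their sex label (age alone as the model, limma adjusted p = 2.79e-04). Without the array carrying both kinds as well, 1 array of 1 week was left, and the change was 3.69, with no spread of its own at that age.

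Within 1 week, Aldh1a1 was lowest in replicate 1 of each label. The same arrays had the lowest summed levels of 3 marker lists at that age. Mature oligodendrocyte genes (8 of 10 listed on the array, 5 of 7 tested higher at 8 weeks) summed to 14095 to 18382 at 8 weeks and 2396 to 11347 at 1 week, with 2396 and 3341 in those arrays. For astrocyte genes (10 of 10, 5 of 10 tested higher and 1 lower) the sums were 14658 to 15772 at 8 weeks and 7025 to 9956 at 1 week, with 7025 and 7569 in those arrays. For cerebellar neuron genes (8 of 8, 5 of 8 tested higher) they were 5247 to 19451 at 8 weeks and 2456 to 8033 at 1 week, with 2956 and 2456 in those arrays. With both replicate 1 arrays of 1 week left out, the change of Aldh1a1 was 2.64 ± 0.16 (limma adjusted p = 2.25e-05). Genes of dopaminergic midbrain neurons (8 of 9, 1 of 5 tested higher and 0 lower) summed to 584 to 878 at 8 weeks and 646 to 784 at 1 week, and these ranges overlapped. No marker in these lists was at 0 on all arrays, and the part of these cells in the Aldh1a1 result was not tested.

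The genes most like Aldh1a1 over the 10 arrays, by the root mean square difference of centred log2 values, were Gprc5b, an orphan receptor gene (0.22), Plekhb1 (0.31) and Septin4 (0.35), where the median over all genes was 1.48. Gprc5b read 650 to 835 at 8 weeks and 44.9 to 106 at 1 week, and was lowest at 1 week in replicate 1 labelled male, as was Aldh1a1. When only deviations from the mean of each age were compared, the closest were Cd1d1 (0.14), the retinol dehydrogenase gene Rdh5 (0.15) and Chchd7 (0.15), against a median of 0.39.

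Aldh1a2 encodes the dehydrogenase that makes most retinoic acid in the mouse embryo. Its probe set (1422789_at) read 59.6 and 59.9 in the arrays labelled female and 64.1 and 45.5 in those labelled male at 8 weeks. The readings at 1 week were 60.5, 35.3 and 61.9 in the arrays labelled female and 46.6, 48.0 and 47.7 in those labelled male. The ages overlapped, all values lay below the filter's mean intensity of 73.9, and the change of 0.14 ± 0.12 did not pass in the fit without the filter (limma adjusted p = 0.441). Without normalization, with a median change of 0.47 over the tested probe sets, it passed at 0.48 ± 0.13 (limma adjusted p = 0.0114). Meningeal and fibroblast genes (12 of 12 on the array, 5 of 10 tested lower and 0 higher) summed to 1760 to 2142 at 8 weeks and 3437 to 11344 at 1 week without overlap, and the part of these cells in the Aldh1a2 value was not tested.

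Rbp4 encodes the retinol carrier of plasma, which is made mainly by hepatocytes. Its probe set (1426225_at) read 192 and 578 in the arrays labelled female and 217 and 184 in those labelled male at 8 weeks. At 1 week it read 148, 287 and 136 in the arrays labelled female and 117, 275 and 104 in those labelled male. In 3 arrays the level was high for their age: replicate 2 labelled female at 8 weeks, and replicates 2 labelled female and male at 1 week. The mean was 293 ± 191 at 8 weeks (SD, n = 4) and 178 ± 81.5 at 1 week (SD, n = 6). The change of 0.58 ± 0.33, with a 95% interval of -0.15 to 1.32, did not pass (limma adjusted p = 0.177).

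The same 3 arrays had the highest summed level of genes made by hepatocytes, a list of 14 drawn up after the Rbp4 values were seen. Of its 13 genes on the array, 8 passed the filter and 0 were called for age, and none was at 0 on all arrays. Their summed intensity ranged from 538 to 7389 at 8 weeks and from 686 to 6428 at 1 week. It was 7389 in replicate 2 labelled female at 8 weeks, and 4552 and 6428 in replicates 2 labelled female and male at 1 week. Alb, the albumin gene, read 3481 in that array at 8 weeks and 70.8 to 130 in the other three, and at 1 week 2159 and 3249 in those 2 arrays and 116 to 888 in the rest. Not all of the list followed. In replicate 2 labelled female at 1 week Apob read 42.5 and Tat 14.3, where that age ran from 37.3 to 51.2 and from 12.9 to 86.9. Closest to Rbp4 over the 10 arrays were Cp (0.28), a copper-binding plasma protein gene, and the liver enzyme genes Cyp3a11 (0.28) and Cps1 (0.28), against a median of 0.66. By deviations from the age means they were F2, the prothrombin gene (0.19), Apoh, a plasma apolipoprotein gene (0.21), and Cyp3a11 (0.22), against 0.58. All of these but Cp are also in the hepatocyte list, so the closest genes and the summed level are not separate observations.

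In the other 7 arrays Rbp4 read 184 to 217 at 8 weeks and 104 to 148 at 1 week, and the ages did not overlap. The 3 arrays left out were those with the highest Rbp4 for their age, and leaving them out narrows the spread within each age. Neither this separation nor the fit that follows is a test apart from these values. Fitted without the 3 arrays, a setting chosen once the values had been seen, the change was 0.56 ± 0.11 and passed (limma adjusted p = 0.011), with 1 array labelled female left at 8 weeks whose spread is taken from the other groups. Without replicate 2 labelled female at 8 weeks alone it was 0.21 ± 0.31 (limma adjusted p = 0.615), and without replicate 1 labelled female at 8 weeks it was 0.95 ± 0.31 and passed (limma adjusted p = 0.0352). The change also passed without normalization (1.06 ± 0.28, limma adjusted p = 0.00282) and when scaled to the spike-in controls (0.78 ± 0.20, limma adjusted p = 6.10e-04), where the median change was 0.18. Choroid plexus genes (8 of 11 on the array, 0 of 3 tested called either way) summed to 4094 to 9314 at 8 weeks and 5242 to 6504 at 1 week, and most of each sum was Ttr. Below the filter, Kl read 66.2 to 178 at 8 weeks and 21.1 to 39.8 at 1 week, and Slc4a5 46.6 to 85.5 and 6.12 to 42.9. These did not overlap between ages, where 12.3% of all probe sets were separated upward, and the other genes of the list overlapped. Ttr, which carries RBP4 in plasma and is abundant in choroid plexus, read 3820, 7882, 8641 and 8002 at 8 weeks and 4822 to 6055 at 1 week, and its change of 0.31 ± 0.17 did not pass (limma adjusted p = 0.172). The part of hepatocyte or choroid plexus RNA in the Rbp4 values was not tested.

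Crabp1 encodes a cytosolic binding protein that buffers retinoic acid. Its probe set (1448326_a_at) read 11.5 and 3.92 in the arrays labelled female and 4.10 and 2.42 in those labelled male at 8 weeks. The readings at 1 week were 59.4, 55.2 and 54.4 in the arrays labelled female and 37.5, 35.9 and 42.9 in those labelled male. Every array at 8 weeks lay below every array at 1 week, and all 10 lay below the filter's mean intensity of 73.9. The mean was 5.47 ± 4.06 at 8 weeks (SD, n = 4) and 47.5 ± 10.1 at 1 week (SD, n = 6). In the fit without the filter the change of -1.28 ± 0.085 passed (limma adjusted p = 1.57e-05). It depended on the pseudocount, at -3.06 with a pseudocount of 1 and -0.48 with 100, and passed with either. It also passed without the 4 arrays opposing their label (-1.24 ± 0.16, limma adjusted p = 0.00434) and on the deposited scale (-1.09, limma adjusted p = 6.43e-05). Meningeal genes (5 of 10 tested lower and 0 higher) had sums that also fell with age without overlap (1760 to 2142 at 8 weeks and 3437 to 11344 at 1 week). Within 1 week the picture was mixed. Replicate 1 labelled female had the highest Crabp1, 59.4, and the lowest meningeal sum, 3437. Replicates 2 and 3 labelled female, next in Crabp1 at 55.2 and 54.4, had the highest sums, 5853 and 11344. Within 8 weeks pituitary sums and Crabp1 had the same order across arrays, but Crabp1 was very dim there. Only 1 array, at 11.5, stood apart from the others, at 2.42 to 4.10. Pituitary genes (6 of 8 on the array, 2 of 4 tested higher and 0 lower, none at 0) summed to 1056 to 13537 at 8 weeks and 331 to 2695 at 1 week. The 13537 was in replicate 1 labelled female, where Prl, the prolactin gene, read 4909 and Crabp1 was highest for 8 weeks, as were Rarb and the brighter Rxra probe set described below. Without that array the Crabp1 change was -1.36 ± 0.081 (limma adjusted p = 5.55e-05). Within 1 week pituitary sums did not follow Crabp1 throughout. Replicates 2 and 3 labelled female, with Crabp1 at 55.2 and 54.4, had the highest and lowest pituitary sums, 2695 and 331. Replicate 1 labelled female had the next highest, 1216, and arrays labelled male had 332 to 397. The part of meningeal or pituitary tissue in these values was not tested. No detection calls were used here, so whether any transcript was present at 8 weeks cannot be read from these values.

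Crabp1 at 1 week was also the 1 retinoid probe set of 10 in which the labels did not overlap, with 35.9 to 42.9 in arrays labelled male and 54.4 to 59.4 in arrays labelled female, where 12.3% of all probe sets were so separated. These labels were opposed by sex-linked transcripts in 4 of the 6 arrays. Blood genes (5 of 6 on the array, 1 of 1 tested lower at 8 weeks) had sums of 205 to 363 in arrays labelled male and 435 to 587 in arrays labelled female at 1 week. Of these genes Alas2 and Slc4a1 separated the labels, and the globin genes did not. Hbb-b2 read 157 in replicate 1 labelled male and 74.0 to 97.3 in arrays labelled female. The part of blood in the Crabp1 values was not tested. Crabp2, the binding protein that delivers retinoic acid to receptors, was dim throughout (1451191_at). It read 6.29 to 13.2 at 8 weeks and 8.22 to 21.9 at 1 week, with overlap, and its change of -0.22 ± 0.10 did not pass (limma adjusted p = 0.117 without the filter).

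**Figure D2:**
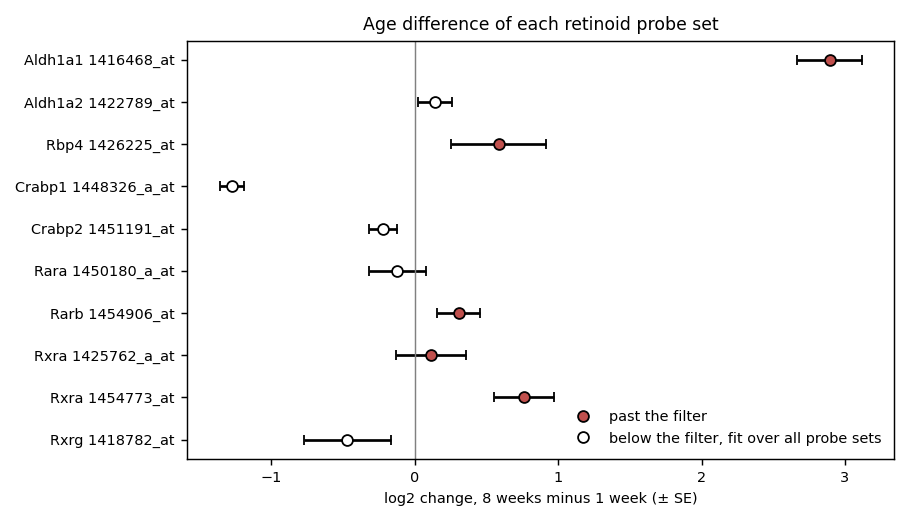
Log2 change of each retinoid probe set, 8 weeks minus 1 week, on the log2(intensity + 24) scale, with bars of ± SE. Filled points passed the filter, and open points come from the fit over all probe sets. Aldh1a1 lies at 2.89 and Crabp1 at -1.28, and all others between -0.47 and 0.76.

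Among the retinoic acid receptors, Rarb is both a receptor and a textbook target of retinoic acid through the repeat shown above. Its probe set (1454906_at) read 231 and 181 in the arrays labelled female and 204 and 168 in those labelled male at 8 weeks. At 1 week it read 211, 113 and 121 in the arrays labelled female and 158, 159 and 175 in those labelled male. The ages overlapped through replicate 1 labelled female at 1 week, the highest array of that age, and through the next highest, replicate 3 labelled male. The change of 0.31 ± 0.15, with a 95% interval of -0.032 to 0.64, did not pass (limma adjusted p = 0.127). It passed without replicate 1 labelled female at 1 week (0.43 ± 0.10, limma adjusted p = 0.00585), with both replicate 1 arrays of 1 week left out (0.42 ± 0.10, limma adjusted p = 0.0128), with array weights (0.37 ± 0.14, limma adjusted p = 0.0437), on the deposited scale (0.77 ± 0.16, limma adjusted p = 4.55e-04) and with spike-in scaling (0.49 ± 0.19, limma adjusted p = 0.0336).

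Striatal medium spiny neuron genes (7 of 11 listed symbols on the array, 5 of 7 tested higher and 0 lower, none at 0) summed to 3737 to 5367 at 8 weeks and 1929 to 3118 at 1 week, without overlap. Replicate 1 labelled female had the highest Rarb and the highest striatal sum at each age, 5367 at 8 weeks and 3118 at 1 week. Replicate 2 labelled female at 1 week had the lowest of both. The order did not hold throughout, since replicate 2 labelled male at 8 weeks had the lowest Rarb of its age and a striatal sum of 4640, the next to highest. The part of striatal tissue in the Rarb values was not tested.

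Rara, the most widely expressed of these receptors, was dim on this array (1450180_a_at). It read 21.1, 23.1, 4.39 and 30.4 at 8 weeks and 10.4 to 32.1 at 1 week, and the ages overlapped. The change of -0.12 ± 0.20 did not pass (limma adjusted p = 0.701 without the filter), and without replicate 1 labelled male at 8 weeks, the lowest array, its sign turned (0.11 ± 0.17, limma adjusted p = 0.692).

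Rxra, the common partner of retinoic acid, thyroid hormone and other receptors, was read by 2 probe sets that disagreed. The brighter (1425762_a_at) read 171 and 138 in the arrays labelled female and 130 and 100.1 in those labelled male at 8 weeks. The readings at 1 week were 108, 111 and 289 in the arrays labelled female and 135, 75.1 and 81.9 in those labelled male. The ages overlapped, and the change of 0.11 ± 0.25, with a 95% interval of -0.43 to 0.66, did not pass (limma adjusted p = 0.735). Replicate 3 labelled female at 1 week, at 289, was the array that carried both Xist and Y-linked signal, and it also had the highest level of the collagen gene Col1a1, 3613 against 266 to 1453 in the other arrays of that age, and a meningeal and fibroblast sum of 11344 against 3437 to 5853. The part of these cells in the Rxra value was not tested. Without this array the change was 0.32 ± 0.15 (limma adjusted p = 0.115). Without the 4 arrays that opposed their label it turned to -0.51 ± 0.27 (limma adjusted p = 0.204), a fit in which the array at 289 and replicate 1 labelled male (135) alone stood for 1 week. On the deposited scale it passed at 0.55 ± 0.21 (limma adjusted p = 0.0275). Genes closest to this probe set over the 10 arrays were Slc10a6 (0.28), Bace2 (0.29) and Zfhx3 (0.30), against a median of 0.51, and by deviations from the age means Pi4k2b (0.27), Slc10a6 (0.27) and Hap1 (0.27), against 0.47.

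The other Rxra probe set (1454773_at) read 83.3 and 145 in the arrays labelled female and 121 and 111 in those labelled male at 8 weeks. At 1 week it read 55.6, 81.6 and 81.0 in the arrays labelled female and 20.5, 70.7 and 51.5 in those labelled male. The ages did not overlap, although the lowest array at 8 weeks was barely above the highest at 1 week. The change of 0.76 ± 0.21 passed (limma adjusted p = 0.0129). This probe set lay just above the filter, at the 40.6th percentile of mean log2 intensity, with a mean of 115 at 8 weeks and of 60.1 at 1 week, under the 73.9 of the filter, so it passed the filter through the age at which it was high. In the fit without the filter the change passed as well (SE 0.22, limma adjusted p = 0.0279). There it lost its call in 7 of 23 alternatives. Among single arrays these were replicate 1 labelled female at 1 week (limma adjusted p = 0.057) and, at 8 weeks, replicate 2 labelled female (limma adjusted p = 0.111), replicate 1 labelled male (limma adjusted p = 0.0822) and replicate 2 labelled male (limma adjusted p = 0.0677). The others were the 4 arrays opposing their label (limma adjusted p = 0.0951), the 3 richest in hepatocyte genes (limma adjusted p = 0.0754) and a pseudocount of 1 (limma adjusted p = 0.0601). With the median of both probe sets standing for the gene, Rxra was higher at 8 weeks by 0.44 ± 0.14 (limma adjusted p = 0.0294).

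Rxrg, the retinoid X receptor of striatum and muscle, was high in 2 arrays of 1 week (1418782_at). It read 18.8, 14.7, 16.1 and 18.7 at 8 weeks, all close together. The readings at 1 week were 70.0, 9.26 and 24.6 in the arrays labelled female and 74.5, 21.9 and 25.5 in those labelled male. The arrays at 70.0 and 74.5 were replicate 1 of each label, the same arrays in which Aldh1a1 and the cerebellar, oligodendrocyte and astrocyte sums were lowest for their age. Their striatal sums, 3118 and 2610, were the highest of that age, though not for every gene of the list, since Tac1 was highest in replicate 3 labelled female (754). Rxrg did not follow these sums across ages. Every array at 8 weeks had a higher striatal sum, 3737 to 5367, with Rxrg at 14.7 to 18.8. The change of -0.47 ± 0.30 did not pass (limma adjusted p = 0.292 without the filter), and with both arrays left out it was -0.093 ± 0.13 (limma adjusted p = 0.662). Without the 5 arrays of 1 week that did not match their sex label, the array at 74.5 alone stood for that age, and the change was -1.26, with no spread of its own at 1 week. The part of regional makeup in this difference was not tested.

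**Figure D3:**
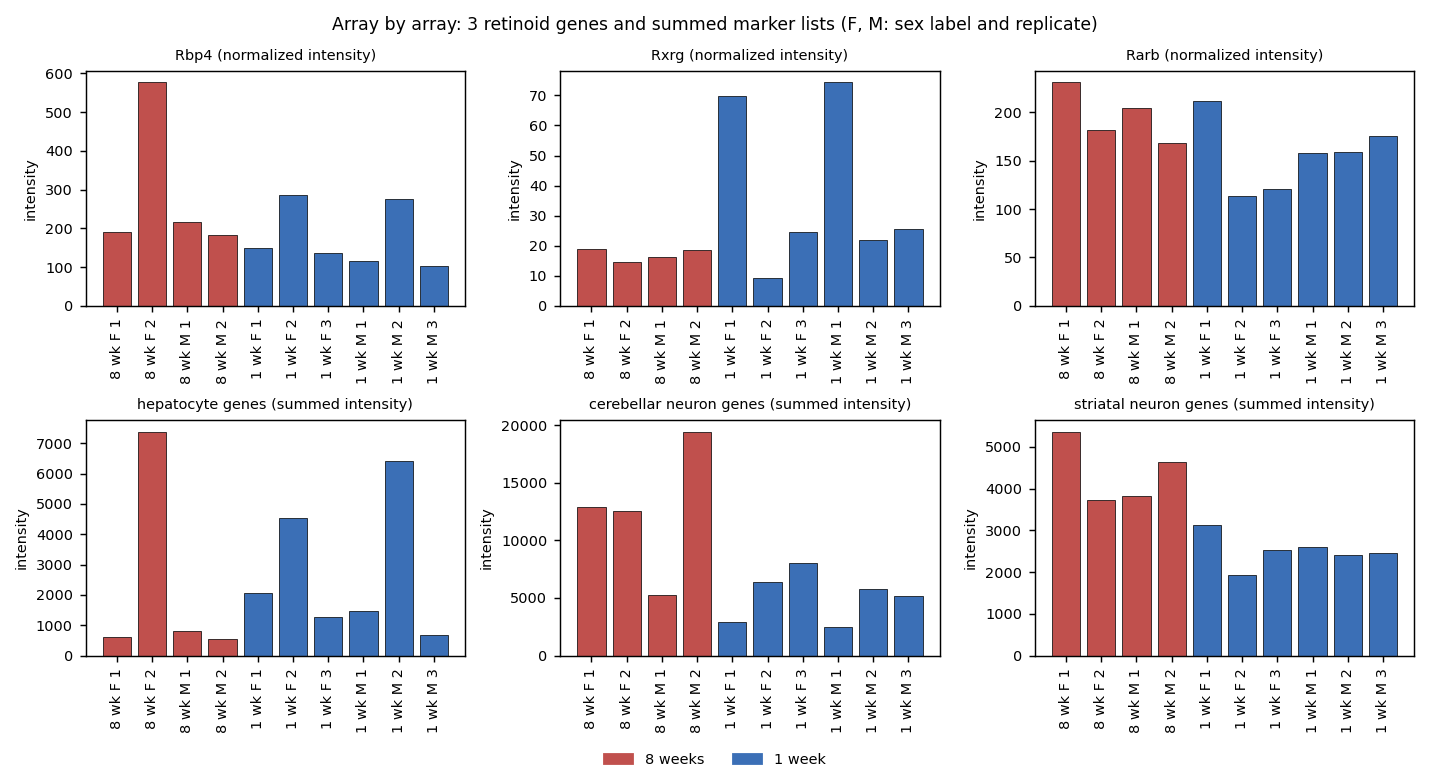
Bars give each array, 8 weeks on the left and 1 week on the right (F and M are sex labels, the digit is the replicate), as normalized intensity of Rbp4, Rxrg and Rarb (top) and summed normalized intensity of marker lists (bottom), all from 0. Rbp4 and the hepatocyte genes are highest in the same 3 arrays. Rxrg is high in the 2 arrays of 1 week whose cerebellar sums are 2956 and 2456.

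Between labels at 8 weeks, where sex-linked transcripts matched the labels, no retinoid probe set passed, and limma called 0 of 13576 probe sets overall (345 at an unadjusted p under 0.05). The male minus female difference of the 5 tested retinoid probe sets ran from -0.69 ± 0.51 for Rbp4 to 0.15 ± 0.35 for Aldh1a1, all with an adjusted p of 1. The age by label interaction gave 0 calls too (759 at an unadjusted p under 0.05). These fits take their spread from all groups, including the 1-week labels that mix the sexes, and did not call even Xist, at 131 and 134 in the arrays labelled male against 1676 and 1405 in those labelled female. Fitted to the 4 arrays of 8 weeks alone, a setting chosen once the values had been seen, limma called 3 probe sets, Xist among them (adjusted p = 0.00242), and all 5 retinoid probe sets kept an adjusted p of 1. None of this shows that the labels act alike.

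Other genes of the retinoid pathway went both ways with age. The lists were written with earlier results of these data known, and held 84 gene symbols, a few of them older names of genes also listed. On the array were 71 genes, and 36 passed the filter. Of these, 8 were higher at 8 weeks (22.2%), 7 lower (19.4%) and 21 did not pass, close to the 21.9% and 24% of all genes. Their median change was 0.045, beside -0.015 over all probe sets tested.

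Genes that oxidise or store retinol were split, with 2 of 10 tested higher, 2 lower and a median change of -0.07, where 21.9% of all genes tested were higher and 24% lower. Rdh14, a retinol dehydrogenase gene, was 487 ± 24.1 at 8 weeks and 337 ± 21.6 at 1 week (SD), a change of 0.50 ± 0.07 (limma adjusted p = 2.59e-04). Rdh5, another retinol dehydrogenase gene, changed by 0.53 ± 0.19 (limma adjusted p = 0.0431), a call that was lost without the filter (limma adjusted p = 0.0777) and without most single arrays, each 8-week array but replicate 1 labelled female among them. Adh5, a class III alcohol dehydrogenase gene, changed by -0.51 ± 0.08 (limma adjusted p = 6.37e-04) and Rdh13 by -0.32 ± 0.07 (limma adjusted p = 0.00392), and on the deposited scale both signs turned, to 0.027 and 0.15. In the fit without the filter, 3 of the 21 genes on the array were higher, where 14.7% of all probe sets were. Of these 3, 2 lay below the filter and did not overlap between ages, where 12.3% of all probe sets were separated upward. Retsat, the retinol saturase gene, was 98.4 ± 11.4 at 8 weeks and 60.5 ± 11.5 at 1 week (SD), a change of 0.54 ± 0.12 (limma adjusted p = 0.00787). Bco2, which encodes a carotenoid-cleaving oxygenase, changed by 0.39 ± 0.10 (limma adjusted p = 0.0181). Adh1, a retinol-oxidising enzyme gene abundant in liver that was below the filter, read 375 in replicate 2 labelled female at 8 weeks and 39.5 to 59.9 in the other arrays of that age, the array with the highest hepatocyte sum.

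Of the binding proteins, 3 of 4 tested were lower and 0 higher with a median of -0.53, where 24% of all genes tested were lower. Without the filter the same count was 3 of 7, where 15.3% of all probe sets were lower. Fabp5, a fatty acid binding protein that can carry retinoic acid to the receptor PPARD, was 1286 ± 154 at 8 weeks and 2975 ± 251 at 1 week (SD). Its change was -1.20 ± 0.09 (limma adjusted p = 5.13e-06). Rlbp1, a retinaldehyde-binding protein best known from retina, changed by -0.76 ± 0.09 (limma adjusted p = 8.73e-05), and no array at 8 weeks reached the level of 1 week in either gene. Rlbp1 averaged 53.3 at 8 weeks and 107 at 1 week and so passed the filter through 1 week, and in the fit without the filter it passed too (limma adjusted p = 2.95e-04). Rbp3, a retinoid carrier of the retina, changed by -0.30 ± 0.08 (limma adjusted p = 0.0104), and its sign turned to 0.16 on the deposited scale. Its call was lost without replicate 2 labelled female at 8 weeks (-0.24, limma adjusted p = 0.0524). Retinaldehyde dehydrogenases beyond the 2 described above, Aldh1a3, Aldh1a7 and Aldh8a1, were all below the filter and not called in the fit without it.

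Cyp26a1, the breakdown enzyme measured here, was 83.5 ± 19.5 at 8 weeks and 81.4 ± 18.9 at 1 week (SD) and did not pass (limma adjusted p = 0.877). Neither of the remaining retinoid receptors passed. The difference was -0.26 ± 0.16 for Rarg (limma adjusted p = 0.216) and, for Rxrb, 0.34 ± 0.15 (limma adjusted p = 0.093).

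Receptors that pair with RXR gave 2 of 4 higher and 1 lower, with a median of 0.08, where 21.9% of all genes tested were higher and 24% lower. Without the filter, 1 of 12 was higher and 1 lower, where 14.7% and 15.3% of all probe sets were. Nr4a1, an immediate early gene encoding a nuclear receptor, was 521 ± 125 at 8 weeks and 285 ± 45.4 at 1 week (SD), a change of 0.80 ± 0.12 (limma adjusted p = 4.68e-04). The thyroid hormone receptor genes differed in sign, Thra at -0.61 ± 0.10 (limma adjusted p = 5.75e-04) and Thrb at 0.28 ± 0.10 (limma adjusted p = 0.0494). The Thrb call was lost in most alternatives, among them the fit without the filter (limma adjusted p = 0.0789) and the replicate block (limma adjusted p = 0.115), and Thra lost its call on the deposited scale (-0.10, limma adjusted p = 0.508). Coregulators gave 3 of 10 higher and 1 lower, with a median of 0.17, beside the same 21.9% and 24% of all genes tested. Kat2b, a histone acetyltransferase gene, was 503 ± 123 at 8 weeks and 211 ± 31.2 at 1 week (SD), a change of 1.15 ± 0.14 (limma adjusted p = 1.02e-04). The acetyltransferase gene Crebbp changed by 0.37 ± 0.11 (limma adjusted p = 0.0164), a call lost without replicate 2 labelled female (limma adjusted p = 0.0588) or replicate 2 labelled male (limma adjusted p = 0.0722) at 8 weeks. Tbl1xr1, a corepressor subunit gene, changed by 0.27 ± 0.07 (limma adjusted p = 0.00779), and Nrip1, a corepressor gene, by -0.38 ± 0.08 (limma adjusted p = 0.0031), which turned to 0.14 on the deposited scale. Ncoa2, a coactivator gene below the filter, changed by 0.33 ± 0.069 in the fit without it (limma adjusted p = 0.0064).

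Textbook retinoic acid response genes gave 1 of 7 higher and 0 lower, with a median of 0.21, where 21.9% of all genes tested were higher and 24% lower. The gene called was Drd2, a dopamine receptor gene that is also in the striatal list, at 192 ± 30.7 at 8 weeks and 132 ± 19.7 at 1 week (SD), a change of 0.46 ± 0.13 (limma adjusted p = 0.0141). That call was lost without replicate 1 labelled female (limma adjusted p = 0.0671) or replicate 2 labelled male at 8 weeks (limma adjusted p = 0.0633). Among those that did not pass, Tgm2, which encodes a transglutaminase, differed by 0.21 ± 0.09 (limma adjusted p = 0.075) and Nrgn, a synaptic calmodulin-binding protein gene, by 0.22 ± 0.20 (limma adjusted p = 0.419). Without the 4 arrays that opposed their sex label, Fabp5, Kat2b, Thra, Adh5, Rdh14, Nrip1 and Crebbp stayed past the threshold, Rdh5, Rdh13, Rbp3, Thrb, Nr4a1, Tbl1xr1 and Drd2 did not, and Rlbp1, then below the filter, passed in the fit without it (-0.71 ± 0.13, limma adjusted p = 0.0149).

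**Figure D4:**
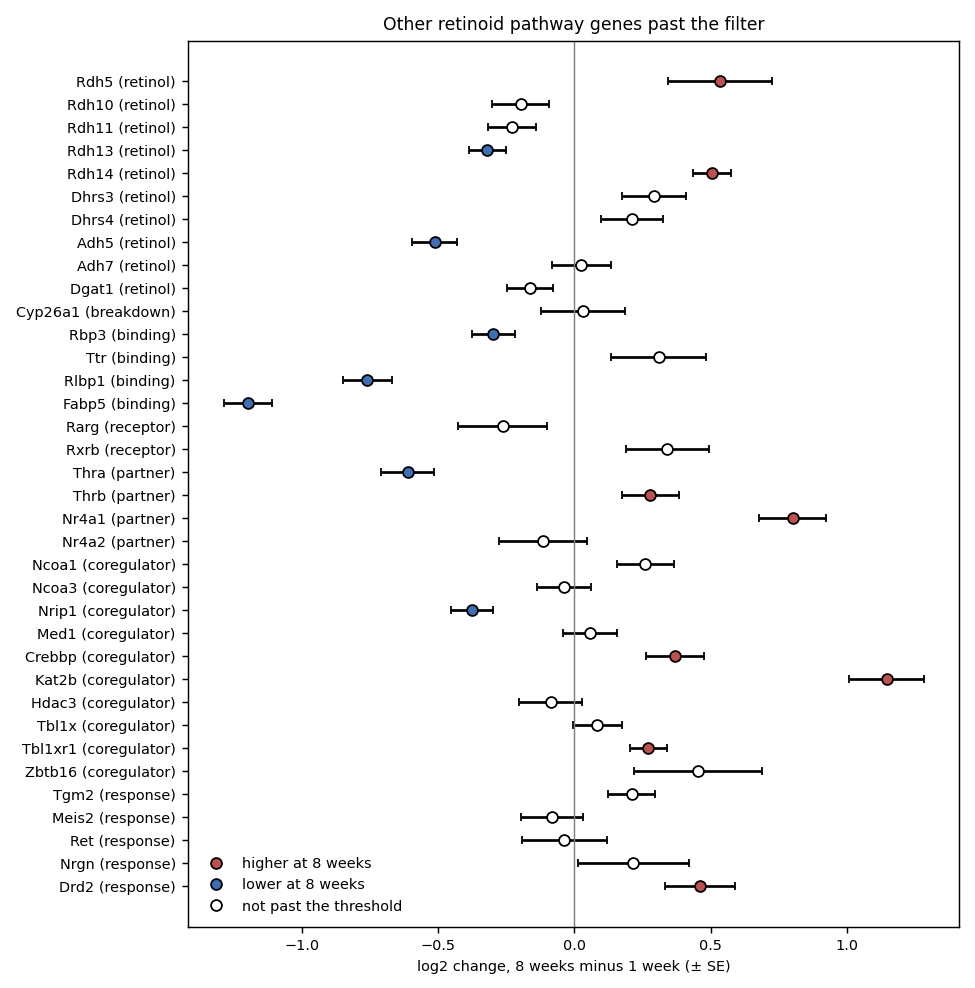
Log2 change, 8 weeks minus 1 week, on the log2(intensity + 24) scale, with bars of ± SE, for the 36 pathway genes past the filter, with the list each belongs to in parentheses. Red points were higher at 8 weeks, blue points lower, and white points did not pass. Kat2b lies furthest right at 1.15 and Fabp5 furthest left at -1.20.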

How the data were processed

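The authors deposited linear intensity values, 1 for each probe set and array, and their probe summary and software are not given in the sources used here. Age and sex groups follow the labels. Of 22690 probe sets, 64 array controls were dropped. After quantile normalization 24 was added, log2 was taken, and probe sets under the 40th percentile of mean log2 were filtered out. Where several probe sets carried 1 symbol alone, the brightest stood for the gene; symbols were matched through Entrez IDs where possible.

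Linear models with a coefficient for each group were tested on simulated data and run with limma 3.58.1 under R 4.3.3 (eBayes moderation), with Benjamini-Hochberg adjustment over all probe sets tested and 95% intervals. An array opposed its sex label where Xist (above 500) and Eif2s3y (above 30) gave the other sex. Pathway genes were named where past the threshold, up to 4 in a list's more frequent direction and up to 2 in the other. Genes most like a member were named too, for members past the filter that were past the threshold or spread over 2-fold within an age. Alb, Col1a1, Adh1, Ttr, Cyp26a1, Rarg, Rxrb, Tgm2, Nrgn and the genes below the filter were named after their values were seen. Members, lists and tests were chosen with earlier results of these data known, and the hepatocyte list and the settings without its 3 highest arrays or both replicate 1 arrays of 1 week were added after values were seen, as were the fit to 8-week arrays alone and the alternatives without a filter. Alternatives were other scalings, pseudocounts, filters, models and arrays left out.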

Additional observations from a re-analysis of the deposited data

Results flagged for a closer look

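Rbp4 in replicate 2 labelled female at 8 weeks read 578, against 184 to 217 in the other three arrays of that age, a gap that took up 86% of the range of the 4 arrays on the log2 scale. It was the array with the highest summed level of hepatocyte genes. Among 20 sets checked, 10 probe sets at each age, this was the 1 flagged for an array far from the rest, and chance flags about 1 in 20.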

How the results depend on the processing

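Aldh1a1 stayed higher at 8 weeks and past the threshold in all 25 alternatives (changes of 2.37 to 3.69, the last with 1 array at 1 week), as did Crabp1, lower, in all 23 of the fit without the filter (-3.06 to -0.48). Probe sets higher and lower at 8 weeks numbered 2993 and 3253. They were 8673 and 629 on the deposited scale, 1914 and 2091 without the 3 arrays richest in hepatocyte genes, and 1973 and 1754 without every array not matching its sex label. Lower calls fell to 1036 with spike-in scaling and were 1974 without the arrays opposing their label. Leaving out 1 array gave 2477 to 2935 higher and 2731 to 3126 lower. Retinoid genes higher at 8 weeks, 1 by brightest probe set, were 4 on the deposited scale, 3 with spike-in scaling, 2 with array weights, 2 with the median over probe sets, 2 with both replicate 1 arrays of 1 week left out, 2 without the 3 arrays rich in hepatocyte genes, and 1 to 2 with 1 array left out. Retinoid genes lower were 0, and 1 without the filter. Calls between labels at 8 weeks were 0, but 1 on the deposited scale, 3 in the 8-week arrays alone, 16 with spike-in scaling and 0 to 2 with 1 array left out. Calls for the interaction were 0, but 1 on the deposited scale, 21 with spike-in scaling and 0 to 2 with 1 array left out. On the deposited scale Rdh13 (0.15), Adh5 (0.027), Rbp3 (0.16) and Nrip1 (0.14) reversed. The causes of these shifts were not tested, beyond the median change of 0.47 on that scale. Replicate numbers recur across groups, and same-numbered arrays correlated from -0.025 to 0.19 in their deviations, over 0.1 in 5 of 13 pairs. The 0.19 was between the replicate 1 arrays of 1 week. These pairs are not independent, since deviations within a group of 2 arrays mirror each other, so they cannot settle whether the numbers pair arrays. The numbers were not used as pairs in the main fit. The replicate block gave 2847 higher and 3054 lower and cost Thrb its call. With age alone as the model and without the 4 arrays opposing their label, Rbp4 changed by 0.92 ± 0.40 (limma adjusted p = 0.123). Rarb changed by 0.43 ± 0.15 there (limma adjusted p = 0.0665). Without the filter, Aldh1a2 changed by 0.056 ± 0.14 (limma adjusted p = 0.833) and Crabp2 by -0.34 ± 0.13 (limma adjusted p = 0.123). Rara changed by -0.39 ± 0.25 (limma adjusted p = 0.342), and none of these passed. Signal limits Crabp2, Rara, Rxrg and Aldh1a2, all below the filter.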
